A study of Mus musculus with 29 samples.

Results

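Interferon-stimulated genes are the transcripts that a cell switches on after it senses an interferon, and 9 of them were followed here through brown adipose tissue (BAT) and skeletal muscle (SkM, gastrocnemius) of mice under calorie restriction (CR), treadmill running exercise training (EX) or both (CREX). The 9 genes, Isg15, Irf7, Stat2, Ifit1, Ifit3, Oasl2, Usp18, Rtp4 and Bst2, were taken by symbol from a table of 24770 gene symbols, and all 9 were found in it. The mice were WT males of the C57BL/6J strain and the interventions began in young adulthood. Control mice ate freely and stayed sedentary, CR mice received a restricted diet, EX mice ate freely and were trained, and CREX mice had the restricted diet with training. All groups were fasted before the tissues were taken, and the trained mice were killed a day after their last run. In BAT there were 3 control, 4 CR, 4 EX and 4 CREX libraries, and in SkM there were 4 control, 3 CR, 4 EX and 3 CREX libraries, 29 in all. The comparisons address how CR changes these genes in sedentary and in trained mice, how EX changes them with and without CR, and whether BAT and SkM differ. Whether same-numbered BAT and SkM libraries came from the same mouse is not stated, and the p-values measure only the spread between these libraries.

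Type I interferons bind a receptor built from IFNAR1 and IFNAR2, whose kinases JAK1 and TYK2 phosphorylate STAT2. Phosphorylated STAT2 acts in a complex with IRF9 that binds a short DNA element, the interferon-stimulated response element (ISRE), in front of its target genes. Among the 9, STAT2 is a part of that complex and IRF7 is a transcription factor that turns on interferon genes themselves. ISG15 is a ubiquitin-like protein that is attached to other proteins, and USP18 takes it off again and dampens receptor signalling. IFIT1 binds foreign RNA, and IFIT3 belongs to the same protein family. OASL2 belongs to the oligoadenylate synthetase family, BST2 (tetherin) holds budding virus particles on the cell surface, and RTP4 is an interferon-induced chaperone of membrane receptors.

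The promoters of these genes can be searched for the letters of that element. RefSeq promoters (GRCm38.p6, from 250 bases before to 50 bases after the start of a gene) were given for 7 of the 9 genes, all but Usp18 and Rtp4, and were searched on both strands for the ISRE core, a pair of GAAA blocks with 2 bases of any kind between them, with overlapping matches counted. The core was present in 5 of the 7, those of Isg15, Bst2, Stat2, Ifit3 and Ifit1, and in 1131 of 32851 promoters in all (3.44%). More than 1 match was found in 4 of the 7 and in 0.225% of all promoters. The windows that hold the matches are printed here because they show how the copies are arranged, with every matched base in capitals, 5′ to 3′ along the strand of the gene. They are chr4:156200856-156200915 (minus strand) for Isg15, chr8:71537565-71537624 (minus strand) for Bst2, chr10:128270251-128270310 (plus strand) for Stat2, chr19:34583365-34583424 (plus strand) for Ifit3 and chr19:34640769-34640828 (plus strand) for Ifit1.
Isg15: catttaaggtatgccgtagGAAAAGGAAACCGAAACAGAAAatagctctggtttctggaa
Bst2: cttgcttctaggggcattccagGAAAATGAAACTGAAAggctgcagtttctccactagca
Stat2: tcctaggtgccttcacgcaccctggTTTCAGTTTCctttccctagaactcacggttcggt
Ifit3: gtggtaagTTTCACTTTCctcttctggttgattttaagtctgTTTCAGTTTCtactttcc
Ifit1: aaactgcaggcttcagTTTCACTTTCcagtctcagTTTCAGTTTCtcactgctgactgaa
Isg15 and Bst2 carried overlapping copies read along the gene, whereas Ifit1 and Ifit3 carried separate copies read on the opposite strand and Stat2 a single one. The gamma-activated site core TTCNNNGAA, the letters of an element of the interferon gamma response, was found in the Bst2 promoter, where it overlaps the ISRE letters, and in none of the other 6. It was present in 8.3% of all promoters. A match is a description of the letters and not evidence of binding.

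**Figure D1:**
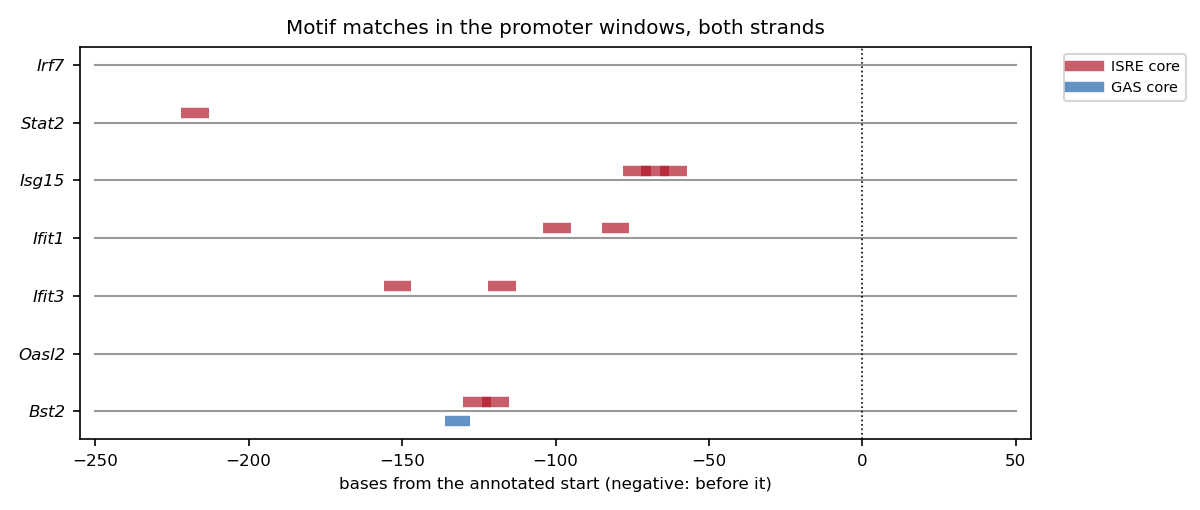
Positions of the ISRE core letters (red) and of the gamma-activated site core (GAS core, blue) in the 7 promoters searched. The x axis gives bases from the start of the gene, negative before it, with 1 line per gene and 1 mark per match. The lines of Irf7 and Oasl2 hold no mark. The Isg15 matches begin 78, 72 and 66 bases before the start, whereas the single Stat2 match begins 222 bases before it.

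In the GRCm38 annotation (GENCODE vM21), Irf7 lies at chr7:141262706-141266481 on the minus strand, Stat2 at chr10:128270559-128292849 (plus), Isg15 at chr4:156199424-156200818 (minus) and Usp18 at chr6:121245906-121270917 (plus). Ifit3 at chr19:34583531-34588731 and Ifit1 at chr19:34640871-34650009 are both on the plus strand of the same cluster. Oasl2 lies at chr5:114896936-114912234 (plus), Bst2 at chr8:71534255-71537456 (minus) and Rtp4 at chr16:23520291-23614222 (plus). Expected counts are summed over exons of a gene, and Ifit3 shared 61.8% of its 31-base words with the neighbouring paralog Ifit3b, so its counts are uncertain. For Ifit1 the share was 10.8% over all other genes, for Isg15 13.1% and for Rtp4 12.5%. Rtp4 overlaps a transcript on the same strand over 13.9% of its exon length, and the strand setting of the counting is not given in the sources used here.

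Totals ran from 21047242 to 24919377 counts per library in BAT and from 23050918 to 23425284 in SkM. The 9 genes were low in both tissues, and Isg15 rested on 4 to 43 counts per library in BAT and 6 to 22 in SkM. The BAT libraries differed in how much muscle RNA they held: 12 skeletal muscle markers summed to between 47.3 and 7410 CPM, reads per 1000000 counted reads. The tissues matched their labels: the 8 brown adipocyte markers, among them the uncoupling protein gene Ucp1, summed to at least 10790 CPM in every BAT library, and Ucp1 stayed at or under 3 counts in every SkM library. SkM EX replicate 3 stood apart for these genes, with the highest mean z score of the 9 genes in SkM (1.58), and the next highest was 0.821. The results for SkM EX are therefore also given without it.

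Per length, Bst2 was the highest of the 9 genes in both tissues. Mean levels in control BAT, in CPM per kb of the longest coding transcript, were 11.2 for Bst2, 2.37 for Stat2, 2.10 for Irf7, 2.04 for Isg15, 2.02 for Rtp4, 1.73 for Ifit3, 0.848 for Oasl2, 0.810 for Ifit1 and 0.803 for Usp18. Control SkM had 6.61 for Bst2, 1.68 for Irf7, 1.44 for Stat2, 1.26 for Rtp4, 1.14 for Ifit3, 0.982 for Oasl2, 0.788 for Isg15, 0.649 for Usp18 and 0.527 for Ifit1. Isg15 was thus among the upper genes in BAT and among the lower ones in SkM.

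**Figure D2:**
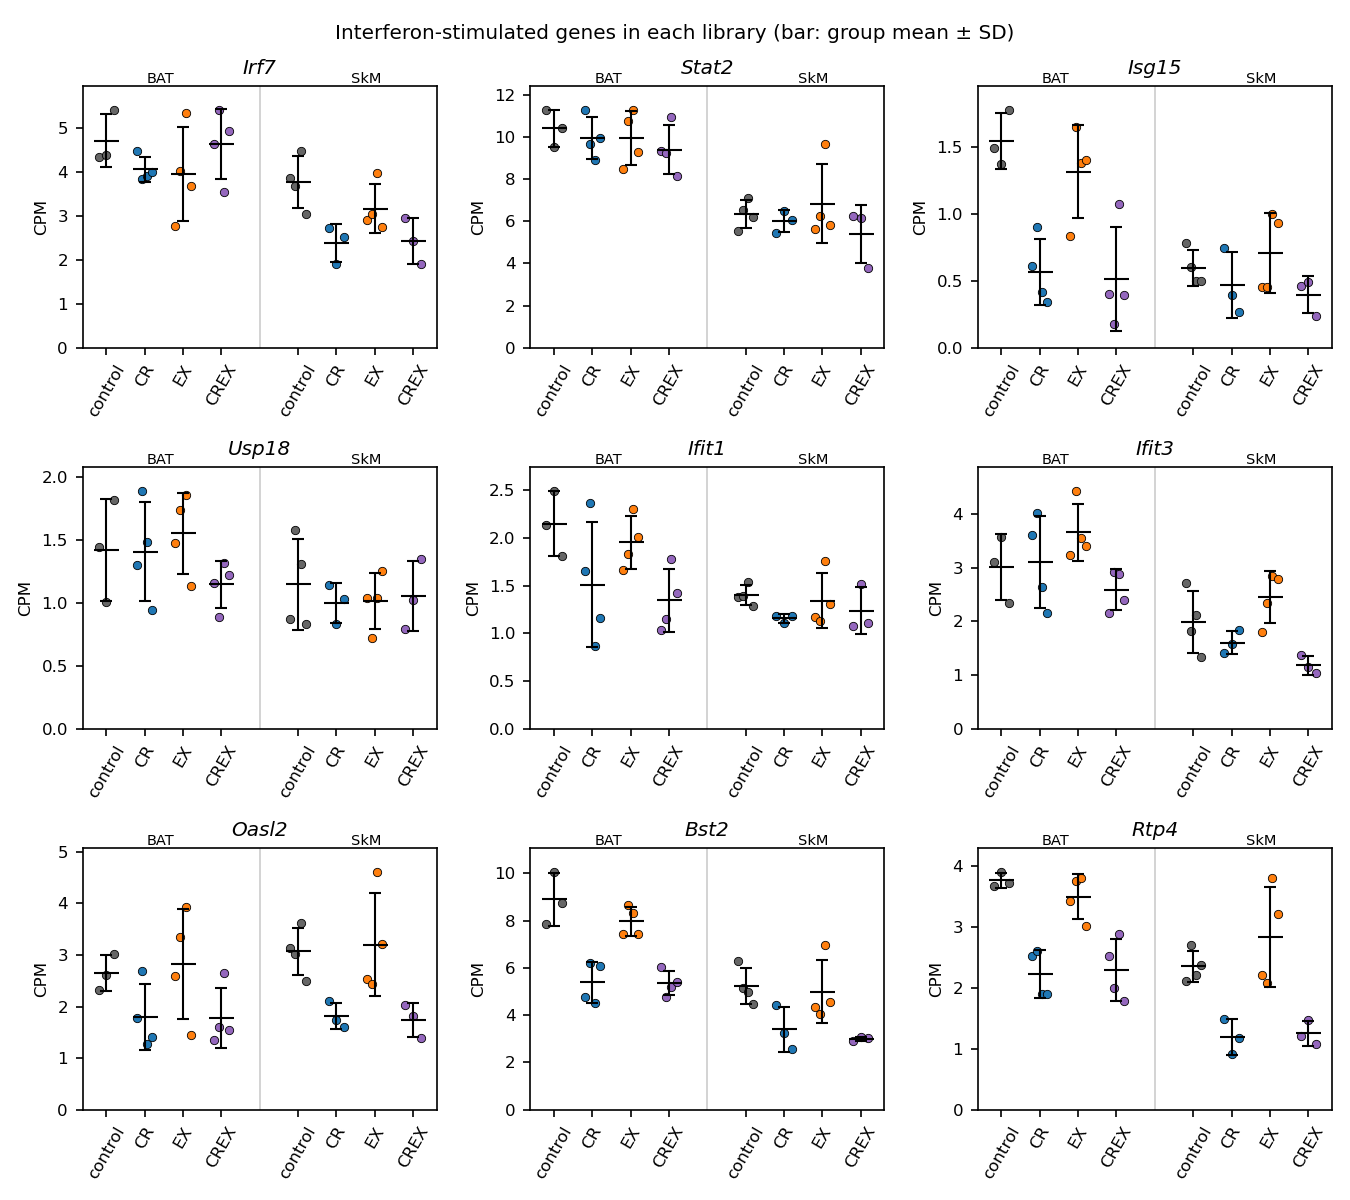
CPM of each of the 9 genes in every library (y axis, separate scale per gene), by tissue and group, with points for libraries, lines for group means and error bars for the SD. Bst2 and Rtp4 were lower in every CR library than in every control library in both tissues. The share of all genes with no such overlap was not counted.

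**Figure D3:**
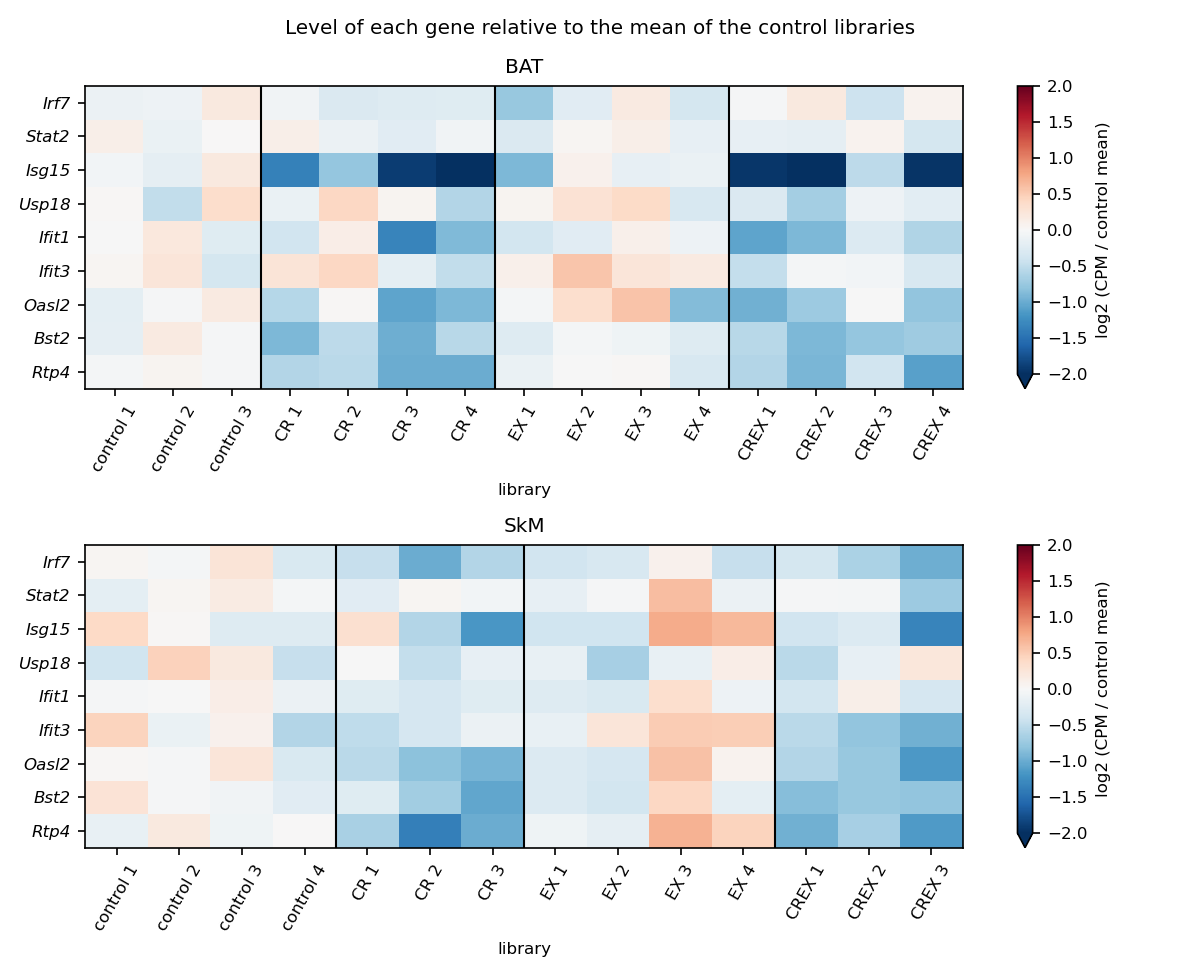
Each gene in each library as log2 of its CPM over the control mean of the same tissue, blue for lower and red for higher, on a scale from -2 to 2. The CR and CREX columns are mostly blue for Isg15, Oasl2, Bst2 and Rtp4, and the Stat2 line is close to white in BAT.

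In BAT of sedentary mice, CR lowered 3 of the 9 genes, Isg15, Bst2 and Rtp4, and raised none. A gene was called a differentially expressed gene (DEG) at an adjusted p under 0.05 with a fold change above 1.5, from edgeR's quasi-likelihood test with Benjamini-Hochberg adjustment over all genes tested. By the same rule 10.7% of 13323 genes were DEGs in this comparison, and 6.86% were lower DEGs. The median log2 fold change of the 9 genes was -0.52, against 0.0045 for all genes, and 8 of the 9 were below 0, where 49.4% of all genes were.

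Isg15, the ubiquitin-like modifier, fell furthest. Its 3 control libraries had 1.49, 1.37 and 1.77 CPM, and its 4 CR libraries had 0.608, 0.899, 0.412 and 0.344 CPM. The groups did not overlap, and the means were 1.54 ± 0.209 (SD, n = 3) and 0.566 ± 0.249 (SD, n = 4). How many of all genes had groups apart was not counted in this or any other comparison, so groups apart only describe the libraries. The log2 fold change was -1.45 (SE 0.31, adjusted p = 0.00969). Its partner protease Usp18 had 1.44, 1.01 and 1.82 CPM in control and 1.30, 1.89, 1.48 and 0.945 CPM in CR, groups that overlapped fully, with a log2 fold change of -0.02 (adjusted p = 0.973).

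Bst2, the virus tether, had 7.87, 10.1 and 8.75 CPM in control BAT and 4.77, 6.20, 4.53 and 6.06 CPM in CR BAT. Every CR library was below every control library, and the log2 fold change was -0.72 (SE 0.15, adjusted p = 0.00719). Rtp4, the receptor chaperone, had 3.67, 3.90 and 3.71 CPM in control and 2.52, 2.60, 1.90 and 1.89 CPM in CR. Here too the groups were apart, with a log2 fold change of -0.76 (SE 0.17, adjusted p = 0.0116).

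The remaining antiviral effectors did not pass. Oasl2 had 2.32, 2.62 and 3.01 CPM in control and 1.78, 2.7, 1.28 and 1.42 CPM in CR, where only CR replicate 2 reached into the control range (log2 fold change -0.57, SE 0.26, adjusted p = 0.139). Without that library Oasl2 was a lower DEG as well, and the median of the 9 genes was -0.81. Ifit1 had 2.14, 2.50 and 1.82 CPM in control and 1.65, 2.37, 0.865 and 1.16 CPM in CR, again with replicate 2 high (log2 fold change -0.52, SE 0.31, adjusted p = 0.25). Ifit3 had 3.10, 3.58 and 2.35 CPM in control and 3.60, 4.02, 2.64 and 2.15 CPM in CR (log2 fold change 0.04, adjusted p = 0.919).

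The transcription factors of the group overlapped between control and CR BAT. Irf7 had 4.33, 4.39 and 5.40 CPM in control and 4.47, 3.83, 3.91 and 4.00 CPM in CR (log2 fold change -0.22, adjusted p = 0.292). Stat2 had 11.3, 9.54 and 10.4 CPM in control and 11.3, 9.65, 8.90 and 9.97 CPM in CR (log2 fold change -0.07, adjusted p = 0.7).

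In BAT of trained mice, none of the 9 genes was a DEG between CREX and EX, where 4.48% of 13251 genes were (2.63% lower), by edgeR's test. DESeq2 on the same libraries also called none. By edgeR's test 5 of the 9 had an unadjusted p under 0.05, as had 3392 of the 13251 genes. The median log2 fold change was -0.54, and 8 of the 9 were below 0. Bst2 had 7.44, 8.64, 8.34 and 7.44 CPM in EX and 6.03, 4.79, 5.20 and 5.41 CPM in CREX, with every CREX library lower. Its log2 fold change was -0.58 (SE 0.11, adjusted p = 0.0163), so it passed the p threshold and stayed just under the 1.5-fold minimum.

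Rtp4 had 3.42, 3.75, 3.81 and 3.02 CPM in EX and 2.51, 2.0, 2.89 and 1.78 CPM in CREX, groups that did not overlap (log2 fold change -0.61, SE 0.18, adjusted p = 0.0689). Ifit3 was also apart, with 3.23, 4.44, 3.56 and 3.41 CPM in EX and 2.16, 2.93, 2.89 and 2.41 CPM in CREX (log2 fold change -0.50, SE 0.17, adjusted p = 0.0906). The share of all genes with groups apart was not counted for CREX against EX in BAT. Isg15 had 0.831, 1.65, 1.38 and 1.40 CPM in EX and 0.399, 0.177, 1.07 and 0.395 CPM in CREX. CREX replicate 3 was the only CREX library inside the EX range, and the log2 fold change was -1.35 (SE 0.45, adjusted p = 0.0929).

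Oasl2 had 2.59, 3.34, 3.93 and 1.44 CPM in EX and 1.36, 1.60, 2.64 and 1.54 CPM in CREX, with EX replicate 4 and CREX replicate 3 each in the range of the other group (log2 fold change -0.67, adjusted p = 0.224). Ifit1 had 1.66, 1.83, 2.31 and 2.01 CPM in EX and 1.04, 1.15, 1.78 and 1.42 CPM in CREX (log2 fold change -0.54, adjusted p = 0.156). Usp18 had 1.48, 1.74, 1.86 and 1.14 CPM in EX and 1.16, 0.887, 1.32 and 1.22 CPM in CREX (log2 fold change -0.44, adjusted p = 0.257). Irf7 and Stat2 lay within their spread, at log2 fold changes of 0.22 and -0.09. Irf7 was the member with the opposite sign, with 2.77, 4.02, 5.34 and 3.68 CPM in EX and 4.63, 5.41, 3.55 and 4.93 CPM in CREX. Leaving out CREX replicate 1, EX replicate 1 or EX replicate 4 made Bst2 a DEG, and leaving out CREX replicate 3 made Isg15 one, so 0 or 1 of the 9 passed without any single library.

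An additive fit of CR and EX over all 15 BAT libraries, chosen after the values were seen and using the same libraries again, gave 4 lower DEGs of the 9, where 11.6% of 13922 genes were DEGs and 7.74% lower ones. The log2 fold changes for CR were -1.40 for Isg15 (SE 0.29, adjusted p = 0.00166), -0.65 for Bst2 (SE 0.09, adjusted p = 6.74e-05), -0.68 for Rtp4 (SE 0.12, adjusted p = 0.000547) and -0.62 for Oasl2 (SE 0.22, adjusted p = 0.0354). Ifit1 passed the p threshold at -0.53 (adjusted p = 0.0414) but not the fold minimum. Bst2 and Rtp4 were lower in each of the 8 CR and CREX libraries than in each of the 7 control and EX libraries. How many of all genes were so separated was not counted. The Oasl2 call did not hold when any 1 of CR replicate 1, 3 or 4, CREX replicate 1, 2 or 4, EX replicate 2 or 3, or control replicate 2 or 3 was left out, and Ifit1 became a DEG without CR replicate 2 or CREX replicate 3.

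Training left no DEG among the 9 in BAT. Between EX and control all 9 genes were tested, 0 passed edgeR's or DESeq2's test, and 0 had an unadjusted p under 0.05, in a comparison where 0% of 13407 genes were DEGs. The log2 fold changes ran from -0.24 (SE 0.21) for Irf7 to 0.29 (SE 0.19) for Ifit3. Between CREX and CR, where 0.00763% of 13112 genes were DEGs, 8 genes were tested and 0 had an unadjusted p under 0.05, and Isg15 was too low in both groups for the filter on low counts. Bst2 and Rtp4 differed there by -0.01 (SE 0.14) and 0.05 (SE 0.20) on the log2 scale.

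In SkM of sedentary mice, CR lowered 2 of the 9 genes, Oasl2 and Rtp4, where 9.6% of 13173 genes were DEGs and 5.32% lower ones. All 9 fold changes were below 0, as were 49.4% of those of all genes, and their median log2 fold change was -0.35. Rtp4 had 2.12, 2.7, 2.22 and 2.37 CPM in control and 1.49, 0.909 and 1.18 CPM in CR, with the groups apart (log2 fold change -0.97, SE 0.22, adjusted p = 0.017). Oasl2 had 3.13, 3.02, 3.62 and 2.50 CPM in control and 2.11, 1.74 and 1.60 CPM in CR, also apart (log2 fold change -0.75, SE 0.19, adjusted p = 0.0293).

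Irf7, Bst2 and Ifit1 also had no overlap between control and CR SkM but did not pass. The share of all genes without overlap was not counted, so this only describes the libraries. Irf7, which hardly moved in BAT, had 3.86, 3.68, 4.48 and 3.04 CPM in control and 2.72, 1.90 and 2.52 CPM in CR (log2 fold change -0.66, SE 0.20, adjusted p = 0.0501). Bst2 had 6.30, 5.17, 4.98 and 4.49 CPM in control and 4.43, 3.24 and 2.56 CPM in CR (log2 fold change -0.62, SE 0.21, adjusted p = 0.0742). Ifit1 had 1.38, 1.40, 1.54 and 1.29 CPM in control and 1.18, 1.11 and 1.18 CPM in CR, a small but even difference (log2 fold change -0.27, adjusted p = 0.415).

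Isg15 had 0.782, 0.605, 0.498 and 0.499 CPM in control SkM and 0.746, 0.395 and 0.267 CPM in CR SkM, where CR replicate 1 was as high as the controls (log2 fold change -0.35, adjusted p = 0.597). Ifit3 had 2.71, 1.81, 2.13 and 1.33 CPM in control and 1.40, 1.58 and 1.83 CPM in CR (log2 fold change -0.30, adjusted p = 0.468). Usp18 and Stat2 overlapped, at log2 fold changes of -0.19 and -0.07. The 2 calls rested on few libraries: without CR replicate 2 or control replicate 2 there were 0, without CR replicate 3, control replicate 1 or control replicate 3 only Rtp4 passed, and without CR replicate 1 there were 4, Irf7, Oasl2, Bst2 and Rtp4, and the median was -0.77.

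In SkM of trained mice, Ifit3, Bst2 and Rtp4 were lower DEGs between CREX and EX, where 8.87% of 13112 genes were DEGs and 5.17% lower ones. The median log2 fold change of the 9 genes was -0.73, and 8 were below 0. Rtp4 had 2.22, 2.08, 3.80 and 3.21 CPM in EX and 1.21, 1.48 and 1.07 CPM in CREX (log2 fold change -1.17, SE 0.27, adjusted p = 0.0244). Ifit3 had 1.81, 2.35, 2.85 and 2.79 CPM in EX and 1.37, 1.15 and 1.03 CPM in CREX (log2 fold change -1.05, SE 0.24, adjusted p = 0.0236). Bst2 had 4.34, 4.07, 6.96 and 4.56 CPM in EX and 2.91, 3.08 and 3.01 CPM in CREX (log2 fold change -0.73, SE 0.21, adjusted p = 0.0475). The groups were apart for all 3, and the share of all genes with groups apart was not counted.

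Oasl2 was apart as well, with 2.53, 2.44, 4.61 and 3.21 CPM in EX and 2.04, 1.81 and 1.39 CPM in CREX (log2 fold change -0.88, SE 0.27, adjusted p = 0.058). Isg15 had 0.452, 0.452, 0.994 and 0.932 CPM in EX and 0.458, 0.493 and 0.238 CPM in CREX, with the 2 low EX libraries inside the CREX range (log2 fold change -0.83, SE 0.44, adjusted p = 0.216). Irf7 had 2.90, 3.03, 3.98 and 2.75 CPM in EX and 2.95, 2.42 and 1.90 CPM in CREX (log2 fold change -0.38, adjusted p = 0.248). Stat2, Ifit1 and Usp18 overlapped, at log2 fold changes of -0.35, -0.12 and 0.06.

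EX replicate 3 was the highest EX library for every one of the 9 but Usp18. Without it the log2 fold changes were -1.0 for Rtp4 (SE 0.26), -0.96 for Ifit3 (SE 0.26) and -0.53 for Bst2 (SE 0.16), the median was -0.53, and no gene was a DEG. The count was also 0 without EX replicate 4, CREX replicate 2 or CREX replicate 3, and it was 1 (Rtp4) without EX replicate 2, 2 (Ifit3 and Rtp4) without EX replicate 1, and 4 (Oasl2 in addition) without CREX replicate 1.

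The same additive fit in SkM, also chosen after the values were seen, gave 4 lower DEGs, where 13.9% of 13610 genes were DEGs and 7.9% lower ones. These were Rtp4 (log2 fold change -1.07, SE 0.17, adjusted p = 0.000269), Oasl2 (-0.81, SE 0.16, adjusted p = 0.00135), Bst2 (-0.67, SE 0.15, adjusted p = 0.00279) and Ifit3 (-0.67, SE 0.19, adjusted p = 0.0139). Irf7 passed the p threshold at -0.52 (adjusted p = 0.0108) but not the fold minimum. Rtp4 and Oasl2 were lower in all 6 CR and CREX libraries than in all 8 control and EX libraries. How many of all genes were so separated was not counted here either. Bst2 did not hold without EX replicate 3, whereas Isg15 became a DEG without CR replicate 1 and Irf7 without CREX replicate 1.

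Training gave no DEG among the 9 in SkM either. Between EX and control, where 0.0775% of 12907 genes were DEGs, all 9 were tested, 0 passed by edgeR or DESeq2, and 0 had an unadjusted p under 0.05. The log2 fold changes ran from -0.25 (SE 0.17) for Irf7 to 0.30 (SE 0.23) for Ifit3. Without EX replicate 3 the range was -0.38 (SE 0.17) for Irf7 to 0.21 (SE 0.25) for Ifit3, and the median moved from 0.06 to -0.17. Between CREX and CR, where 0% of 13068 genes were DEGs, 0 of 9 had an unadjusted p under 0.05. Ifit3 was the gene with no overlap there, lower in CREX than in CR at a log2 fold change of -0.45 (SE 0.27, adjusted p = 0.999). Its paralog Ifit3b, named after its values were seen, had 0.44 (SE 0.41) in the same comparison. In SkM Ifit3b had -0.94 (SE 0.32) for CR against control and -0.55 (SE 0.20) for CREX against EX. How shared reads were split between these paralogs was not tested.

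**Figure D4:**
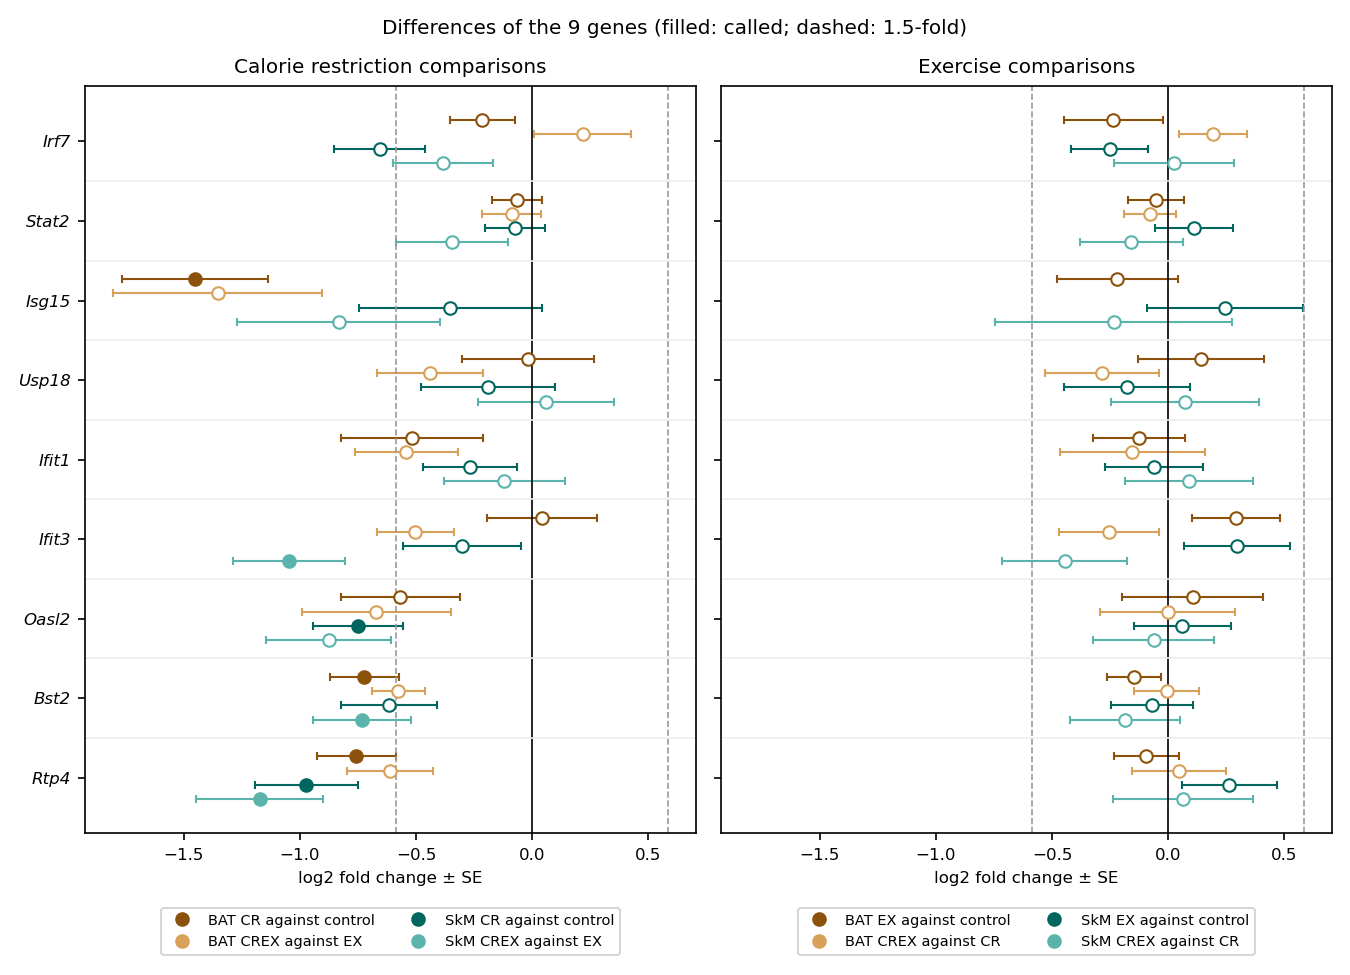
Log2 fold changes of the 9 genes in both tissues (x axis, log2 scale), with points for estimates, bars for standard errors and filled points for DEGs. The left panel holds CR against control and CREX against EX, and the right panel EX against control and CREX against CR. Bst2 and Rtp4 lie between -0.58 and -1.17 in all 4 comparisons of the left panel.

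Bst2 and Rtp4 thus had lower means with CR in sedentary and trained mice of both tissues, and the separate values stand above. Whether the CR difference depended on training was tested by an interaction term. In neither tissue did any of the 9 pass, where 0% of all genes did: the smallest unadjusted p was 0.0886 in BAT and 0.0535 in SkM, both for Ifit3, with interactions of -0.54 (SE 0.30) and -0.73 (SE 0.35). The counts of Ifit3 are uncertain because of its paralog. DESeq2 called none of the 9 either.

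Whether the CR difference depended on tissue was tested in the same way, and 0 of the 9 passed edgeR's or DESeq2's test, where 7.58% of 14369 genes passed for CR against control and 5.58% of 14410 for CREX against EX. Isg15 alone had an unadjusted p under 0.05, in sedentary mice. Its CR difference was 1.09 lower on the log2 scale in BAT than in SkM (difference -1.09, SE 0.51, adjusted p = 0.212). For Irf7 the CR difference was higher in BAT by 0.45 (SE 0.23) in sedentary and by 0.61 (SE 0.31) in trained mice, short of the threshold. In sedentary mice Isg15 and Bst2 were DEGs in BAT and not in SkM, and Oasl2 in SkM and not in BAT, but for none of the 3 did the test of the difference pass.

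Between the tissues of control mice, Isg15 was the DEG of the 9, where 60% of 13797 genes were DEGs. It was higher in BAT, at 1.54 ± 0.209 CPM (SD, n = 3) against 0.596 ± 0.134 CPM (SD, n = 4) in SkM, with a log2 fold change of 1.1 (SE 0.25, adjusted p = 0.00186). Stat2, Bst2 and Rtp4 were higher in BAT by 0.44, 0.49 and 0.40 on the log2 scale (adjusted p = 0.00437, 0.00769 and 0.0283), and Oasl2 was lower by 0.48 (log2 fold change -0.48, adjusted p = 0.027), all under 1.5-fold. Without SkM control replicate 1, Bst2 was a second DEG.

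The pathway above the 9 genes was described from lists by role. Counts of DEGs in these lists and in the marker lists are to be read beside the shares of all genes given above. An unadjusted p under 0.05 by edgeR's test was common among all genes with CR. In BAT 4767 of 13323 genes had one for CR against control and 3392 of 13251 for CREX against EX. In SkM 3866 of 13173 and 4235 of 13112 had one. Interferon transcripts themselves were almost absent: of 12 ligands listed, 3 were in the table (Ifnk, Ifnz and Ifng), and none exceeded 1 count in any library, so none was tested. Of the receptors, Ifngr1, a subunit of the interferon gamma receptor, was the 1 higher DEG of 5 tested in BAT with CR (log2 fold change 0.90, SE 0.17, adjusted p = 0.00948), and 0 of 5 passed edgeR's test in the other 3 CR comparisons, with 4 unadjusted p under 0.05 for CREX against EX in BAT, 1 for CR in SkM and 2 for CREX against EX in SkM. Ifnar1 and Ifnar2, the type I receptor subunits, named here after their values were seen, were not DEGs, with log2 fold changes of 0.09 and -0.13 in BAT and -0.09 and -0.25 in SkM for CR against control.

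Among 10 kinases and transcription factors, Irf5, an inducer of inflammatory genes, was the 1 DEG in BAT with CR (log2 fold change -0.90, SE 0.28, adjusted p = 0.045). It was lower in SkM too, at -2.42 (SE 0.26, adjusted p = 0.000488) for CR against control, together with Irf2, a repressor of interferon responses (-0.70, SE 0.12, adjusted p = 0.00433). For CREX against EX, Irf5 was the 1 DEG of the 10 in SkM (log2 fold change -1.98, SE 0.48, adjusted p = 0.0346), and 0 of 10 passed in BAT, with 4 unadjusted p under 0.05. Irf9, the DNA-binding part of the complex that holds STAT2, was also chosen after its values were seen and had log2 fold changes of -0.17 (adjusted p = 0.278) in BAT and -0.03 (adjusted p = 0.914) in SkM for CR against control.

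The sensors of foreign nucleic acid moved in both directions. In BAT with CR, 1 of 14 tested was higher and 2 were lower. Ddx58, which encodes the RNA sensor RIG-I, was lower (log2 fold change -0.82, SE 0.09, adjusted p = 0.000383), as was the endosomal RNA receptor Tlr7 (-1.05, SE 0.27, adjusted p = 0.0208). Dhx58, whose product LGP2 regulates RIG-I signalling, was higher (1.12, SE 0.21, adjusted p = 0.00578). Ddx58 and Dhx58 were also the 2 DEGs of 15 sensors for CREX against EX, at -0.68 (SE 0.10, adjusted p = 0.00509) and 0.62 (SE 0.15, adjusted p = 0.031). In SkM the 1 DEG of 12 was Tmem173, the DNA-sensing adaptor STING, for CR against control (-1.12, SE 0.22, adjusted p = 0.00914), and Tlr3, a receptor for double-stranded RNA, for CREX against EX (-0.98, SE 0.26, adjusted p = 0.0346).

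Of 52 other interferon-stimulated effectors, 47 were tested in BAT with CR, where 6 were lower DEGs, 0 higher, and 37 were below 0 (median log2 fold change -0.27). Of all genes, 10.7% were DEGs there, 6.86% were lower ones and 49.4% were below 0. Ifi27l2a fell by 1.56 on the log2 scale (SE 0.14, adjusted p = 0.000164), Parp9, an ADP-ribosylation enzyme partner, by 0.59 (SE 0.09, adjusted p = 0.00145) and Iigp1, an immunity-related GTPase, by 0.77 (SE 0.13, adjusted p = 0.00344). For CREX against EX, 4 of 47 were lower and 37 were below 0, where 2.63% of all genes were lower DEGs and 50.4% were below 0. Examples are Ifi27l2a (log2 fold change -0.90, adjusted p = 0.00505), Ifi44 (-1.41, adjusted p = 0.00835) and Ifitm3, which blocks entry of viruses (-0.61, adjusted p = 0.0163).

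In SkM the same effectors gave 3 lower and 1 higher DEG of 46 for CR against control, with 40 below 0 (median -0.23). For CREX against EX there were 6 lower and 1 higher of 45, with 42 below 0 (median -0.51). Among all genes 9.6% and 8.87% were DEGs, 5.32% and 5.17% were lower ones, and 49.4% and 49.7% were below 0. The effector DEGs for CR against control were thus near the share of all genes. Ifi44 was lower in both (log2 fold changes -1.37 and -1.88, adjusted p = 0.0292 and 0.0248), and Ifi204, a DNA-binding protein of the HIN-200 family, was higher in both (1.19 and 1.49, adjusted p = 0.0178 and 0.0134). Iigp1 was lower for CR against control (-1.12, adjusted p = 0.0139). Xaf1, which antagonises an inhibitor of apoptosis, was lower for CREX against EX (-1.01, adjusted p = 0.0349).

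The enzymes that attach ISG15 to proteins gave 0 DEGs of 4 in BAT. In each CR comparison 2 had an unadjusted p under 0.05, and the smallest adjusted p by edgeR's test was 0.0362 for CR against control and 0.0465 for CREX against EX, with every change under 1.5-fold. In SkM with CR the count was also 0 of 4, with 1 unadjusted p under 0.05. In SkM for CREX against EX, Uba7, the activating enzyme of the ISG15 pathway, was lower (log2 fold change -1.20, SE 0.31, adjusted p = 0.034). Of the feedback inhibitors, Irf2bp2, a corepressor that binds IRF2, was the 1 lower DEG of 6 in BAT with CR (-0.62, SE 0.12, adjusted p = 0.00498) and the 1 higher DEG of 7 in SkM for CREX against EX (0.89, SE 0.22, adjusted p = 0.0336). Socs3, a feedback inhibitor of cytokine receptors named here after its values were seen, had 217.6 CPM in SkM CREX replicate 3 and 1.37 and 1.56 CPM in the other CREX libraries, and it was not a DEG. In the comparisons of EX with control and of CREX with CR, no list of the pathway held a DEG in either tissue by edgeR's test. Of the effectors, 5 and 4 had an unadjusted p under 0.05 in BAT and 1 and 1 in SkM. Among all genes 972 of 13407 and 1001 of 13112 had one in BAT, and 884 of 12907 and 477 of 13068 in SkM.

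Immune cells are rich in several of these transcripts, and in bulk tissue fewer cells of a type and less RNA per cell cannot be told apart. In BAT with CR, 2 of 9 macrophage markers tested were lower DEGs, Lyz2 (log2 fold change -0.85, adjusted p = 0.0173) and Mrc1 (-0.60, adjusted p = 0.0294). The 10 macrophage markers summed to 82.6 to 88.2 CPM in control, 46.1 to 73.8 in CR, 87.2 to 141 in EX and 48.2 to 97.2 in CREX. Marco was at 3 counts or fewer in every library.

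B cell transcripts moved with CR as well. The 6 B cell markers in the table summed to 1.73 to 2.38 CPM in control BAT, 0.189 to 0.247 in CR, 1.24 to 2.26 in EX and 0.124 to 0.355 in CREX, and Cd22, Cd79a, Ms4a1 and Pax5 were at 3 counts or fewer in every CR and CREX library. Cd79a, part of the B cell receptor, was the 1 gene tested (log2 fold change -3.62, adjusted p = 0.000514 for CR against control). T and NK cell markers summed to 1.41 to 2.10 CPM in control BAT and 0.237 to 0.774 in CR BAT, with none tested. The monocyte receptor Ccr2 was lower with CR (-1.70, adjusted p = 0.000956). Of 2 conventional and 2 plasmacytoid dendritic cell markers tested 0 were DEGs. Zbtb46, a transcription factor of conventional dendritic cells, passed edgeR's adjusted threshold with a change under 1.5-fold, at a log2 fold change of -0.58 (adjusted p = 0.00604) for CR against control and -0.41 (adjusted p = 0.0163) for CREX against EX. Clec9a, the other conventional marker tested, had the opposite sign and did not pass edgeR's test. Its log2 fold change was 0.41 in each of these comparisons (adjusted p = 0.286 and 0.407). The plasmacytoid markers tested were Tcf4 and Cox6a2, and neither had an unadjusted p under 0.05 by edgeR's test. Neither is specific: Tcf4 is found in other cells too, and Cox6a2 averaged 15.7 CPM in BAT and 1411 CPM in SkM. Ccr9 and Klk1 were at 3 counts or fewer in every BAT library, and Pacsin1 in every control, CR and CREX library. Ly6d and Spib were at 3 counts or fewer in every CR and CREX library, and Siglech in every CREX library. Ly6d, Spib and Siglech each exceeded 3 counts in at least 1 control and 1 EX library.

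Of tissue cells in BAT with CR, 4 of 6 fibroblast markers were lower DEGs, Col1a1 with the smallest p (log2 fold change -1.29, adjusted p = 0.000137), and so were 2 of 8 brown adipocyte markers, Ucp1 (-1.02, adjusted p = 0.000724) and Plin1 (-0.67, adjusted p = 0.00302). Elovl3 of the same list had higher means with CR, at 51.1 CPM in control, 98.7 in CR, 63.7 in EX and 114 in CREX. In the additive fit it was a higher DEG by edgeR's test (0.89, adjusted p = 0.00703), and Ucp1 a lower one (-1.01, adjusted p = 3.5e-05). Endothelial markers gave 0 DEGs of 8, with 4 unadjusted p under 0.05 and a smallest adjusted p of 0.00328 by edgeR's test, since every change was under 1.5-fold. Skeletal muscle markers gave 0 of 12, with no unadjusted p under 0.05. For CREX against EX, Cd79a (-3.29, adjusted p = 0.00567), Ccr2 (-1.38, adjusted p = 0.0116), Dpt (-1.04, adjusted p = 0.0308) and Ucp1 (-0.99, adjusted p = 0.0192) were the lower DEGs of all these lists. Col1a1 was not a DEG there. It had 34.5, 39.0, 349.9 and 32.7 CPM in EX, with replicate 3 far above the rest, and 12.2, 14.0, 11.5 and 12.2 CPM in CREX. The part of these cell markers in the results for the 9 genes was not tested, apart from the muscle marker score. With that score as a covariate, the 3 genes lower in BAT with CR were still the 3 DEGs, and for CREX against EX Oasl2 and Bst2 became DEGs.

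In SkM most DEGs among the markers of non-muscle cells were of vessel and matrix. Of 9 macrophage markers 0 passed edgeR's test in either CR comparison, with 0 unadjusted p under 0.05, and their sum was 33.7 to 61.9 CPM in control, 24.9 to 40.9 in CR, 22.6 to 42.2 in EX and 22.3 to 51.4 in CREX. Endothelial markers summed to 280 to 348 CPM in control, 179 to 224 in CR, 276 to 350 in EX and 123 to 249 in CREX. They held 3 lower DEGs of 8 in each CR comparison, among them Emcn (log2 fold changes -0.80 and -1.0, adjusted p = 0.00986 and 0.0195) and Cdh5 (-0.66 and -0.96, adjusted p = 0.0162 and 0.0392). Fibroblast markers gave 3 lower DEGs of 6 in each, led by Col1a1 (-2.33 and -2.27, adjusted p = 0.000131 and 0.00811). The muscle fibre gene Actn3 was higher in both (1.30 and 1.5, adjusted p = 0.00115 and 0.00505). Of the immune markers, Tcf4, a transcription factor of plasmacytoid dendritic cells and of other cells, was a lower DEG for CREX against EX (-0.60, adjusted p = 0.0275). In the fit of CR over sedentary and EX mice, Ccr2 (-1.31, adjusted p = 0.0343) and Clec9a, a receptor of conventional dendritic cells (-0.97, adjusted p = 0.0107), were lower DEGs. B cell, T cell and NK cell markers were too low to test. The part of these markers in the results for the 9 genes was not tested.

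Most pairs of the 9 genes were positively correlated across libraries, with Irf7 in BAT as the main exception. Over the 15 BAT libraries the median Pearson correlation of log2 CPM among the 36 pairs of genes was 0.508, and 31 pairs were above 0. The other 5 were those of Irf7 with Isg15 (-0.14), Usp18 (-0.06), Ifit1 (-0.05), Ifit3 (-0.24) and Rtp4 (-0.09). Over the 14 SkM libraries the median was 0.637, and 34 pairs were above 0, the others being those of Usp18 with Stat2 (-0.16) and Ifit3 (-0.03). With group means removed the medians were 0.348 and 0.461. These are descriptions, since the libraries share groups and composition. The mean z score of the 9 genes was highest in EX replicate 3 of each tissue (1.14 in BAT, 1.58 in SkM) and lowest in CR replicate 3 in BAT (-0.961) and CREX replicate 3 in SkM (-1.25). Outside the 9, the genes most like that mean score were Prcp (Pearson r 0.921), Tgtp2 (0.889), Ifit2 (0.886), Plekho2 (0.886) and Clec3b (0.883) of 13913 genes in BAT. In SkM they were Klhl31 (0.917), Hoxb4 (0.910), Samd1 (0.901), Nrarp (0.898) and Psmb9 (0.891) of 13601 genes.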

How the data were processed

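RNA extracted with Trizol from 15 BAT and 14 gastrocnemius samples was sequenced on the BGIseq500 platform in paired ends. The deposited table holds what the authors made with RSEM, expected counts of each gene symbol before any scaling. The submitters' processing notes name STAR 2.7.10a, RSEM 1.2.28, DESeq2 1.3.40 and the build mm10. The annotation used for counting and its strand setting are not given in the sources used here. Of the values, 6.11% were not whole, and they were rounded. There were 27 symbols that had been turned into dates and 2 that were duplicated, and none of these is named.

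The deposited expected counts were tested with edgeR 4.0.16 (R 4.3.3): TMM normalization, filterByExpr and the robust quasi-likelihood test, on the libraries of the 2 groups compared, with Benjamini-Hochberg adjustment over all genes that passed the filter. DEGs passed at an adjusted p below 0.05 with more than a 1.5-fold change. For interactions and tissue differences the fold minimum was not applied. CPM values are per 1000000 TMM-scaled counts, and a prior count of 2 was used for log2 CPM in correlations. Totals of about the same size in every library limit the precision of genes with few counts, and p-values cover the spread between libraries.

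On simulated counts with 2-fold changes, 169 of 198 changed genes were called for CR against control in BAT and 139 of 199 for CREX against EX in SkM, with 9 unchanged genes called in each. The changed genes were drawn from all genes averaging at least 10 counts. These shares therefore do not give the power for smaller changes or for genes with as few counts as the 9. Alternatives were DESeq2 1.42.0, size factors by RLE, the table unfiltered, a minimum of 10 counts in each library, 1 fit over all groups of a tissue, the replicate number as a block, no fold minimum, the muscle marker score as a covariate in BAT, and leaving out each library. The additive fit of CR and EX, and the fit over all BAT groups with the muscle score, were added after the data were seen. The 9 genes, the pathway and marker lists and the tests were chosen with earlier results of these data known, so nothing here is independent support for them. All 9 genes are named in each comparison. Of a list, at most 3 DEGs with the smallest p are named or, without DEGs, its most abundant genes, and the few genes named outside this rule, such as markers near 0, were chosen after their values were seen. Promoter sequences are from RefSeq (GRCm38.p6), and gene positions from GENCODE vM21 (GRCm38). Figures were drawn with matplotlib 3.10.9.

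Same-numbered libraries were compared before the fits. In no comparison did the deviations from the group means correlate above 0.1 in every pair, so the numbers were not treated as pairs.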

Additional observations from a re-analysis of the deposited data

Results flagged for a closer look

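Stat2 in SkM EX replicate 3 stood far from the other libraries of its group, at 9.67 CPM against 5.66, 5.82 and 6.24 CPM. The gap took a share of 0.855 of the range of the group. It was the 1 such case among 45 groups of values of the 9 genes, and chance alone gives about 1 in 20.

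Genes of the pathway lists, though none of the 9, differed between BAT and SkM in their response to CR, by edgeR's quasi-likelihood test of the difference (log2 fold change in BAT minus that in SkM). The differences in sedentary mice were -1.18 for Irf2bp2 (-0.62 in BAT, 0.57 in SkM, adjusted p = 0.000524), 1.16 for Irf2 (0.45 and -0.70, adjusted p = 0.000859) and 0.74 for Mavs, the adaptor of RNA sensors (0.29 and -0.44, adjusted p = 0.00215). Ddx58 differed by -1.01 (-0.82 and 0.19, adjusted p = 0.00261) and Sh2b3, an adaptor that restrains cytokine signalling, by -0.63 (-0.26 and 0.37, adjusted p = 0.0105). Irf5 was lower in both tissues and more so in SkM, with a difference of 1.54 (-0.90 and -2.42, adjusted p = 0.0271). Parp9 differed by -0.52 (-0.59 and -0.06, adjusted p = 0.0373), Dhx58 by 1.40 (1.12 and -0.26, adjusted p = 0.0451) and Ifngr1 by 0.77 (0.90 and 0.14, adjusted p = 0.048).

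In trained mice, the difference between CREX and EX was unlike in BAT and SkM for Parp10 (difference 1.11, from 0.10 in BAT and -1.01 in SkM, adjusted p = 0.0354) and again for Dhx58 (difference 1.22, from 0.62 and -0.59, adjusted p = 0.0455).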

How the results depend on the processing

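Counts of DEGs among the 9 genes kept their side under most settings, and no called gene changed sign under any. In BAT with CR the 3 calls became 3 to 4 when 1 library was left out. For CREX against EX in BAT the count of 0 became 2 in the fit over all groups (Isg15, Rtp4), 1 with no fold minimum (Bst2), 2 with the muscle score as a covariate (Oasl2, Bst2), 2 in the fit over all groups with that score, added later (Isg15, Rtp4), and 0 to 1 with 1 library left out. In SkM with CR the 2 calls became 4 with no filter on low counts and 0 to 4 with 1 library left out. For CREX against EX in SkM the 3 calls became 0 to 4, and for BAT against SkM in control mice the 1 call became 1 to 2. In the additive fits the 4 calls became 3 to 5 in each tissue. The causes were not tested. The counts of 0 for EX against control, CREX against CR, the interactions and the tissue differences stayed at 0 under each alternative run.

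Libraries share only a number, and with the replicate number as a block the count was 1 in BAT with CR (Bst2), 4 in SkM with CR (Irf7, Oasl2, Bst2, Rtp4) and 0 for CREX against EX in SkM, where the adjusted p-values of the 3 genes ran from 0.089 to 0.0933. Pair correlations ran from -0.463 to 0.484 over the comparisons.

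Over all genes, the counts that moved by over 1.5 times in the CR comparisons were 1430 DEGs for CR in BAT (929 with the block, 2778 with no fold minimum), 594 for CREX against EX in BAT (1061 with no fold minimum, 1029 with all groups and the muscle score, 363 to 388 without CREX replicate 1 or 4 or EX replicate 2 or 3) and 1163 for CREX against EX in SkM (646 with the block, 1781 with no fold minimum, 343 to 2570 with a library left out). The tissue differences gave 1089 genes for CR (1644 by DESeq2, 657 with the block, 663 to 721 with a library left out) and 804 for CREX against EX (1375 by DESeq2, 333 to 2237). The additive fits gave 1620 and 1890 (4637 and 4568 with no fold minimum). The exercise comparisons gave 0 in BAT (39 by DESeq2) and 10 in SkM (52 by DESeq2, 1 with the block), and CREX against CR gave 1 in BAT (30 by DESeq2, 51 with the block) and 0 in SkM (17 by DESeq2, 99 without CREX replicate 1). The interactions gave 0 (5 and 4 by DESeq2 in BAT and SkM, 182 in SkM without CREX replicate 1). Isg15, at 4 to 43 counts per library, is the gene whose precision depth limits most.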

Other observations

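Col1a1, the collagen chain gene of the fibroblast list, had 349.9 CPM in BAT EX replicate 3 and 34.5, 39.0 and 32.7 CPM in the other EX libraries. The same library had the highest mean z score of the 9 interferon-stimulated genes in BAT. Socs3 had 217.6 CPM in SkM CREX replicate 3, the library with the lowest mean z score of the 9 genes in SkM, and at most 3.60 CPM in any other SkM library. These genes were named after their values were seen, and no test was made.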
